A study of Mus musculus with 15 samples.

Results

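The 8 genes described here encode secreted or cytosolic proteins of epithelial and myeloid defence: the calgranulins *S100a8* and *S100a9*, the stefins *Stfa1*, *Stfa2* and *Stfa3*, the siderophore-binding lipocalin *Lcn2*, the secretory leukocyte protease inhibitor *Slpi* and the acute phase apolipoprotein *Saa3*. They were taken by symbol from a table of 55487 genes counted in mouse skin, and all 8 were found. No filter on low counts was applied, so that every one of the 8 was tested in each comparison. Gene expression was measured with QuantSeq 3′ mRNA sequencing, in which a transcript gives reads from its 3′ end, so that levels need no correction for length. There were 15 libraries from skin of 3-week-old C57BL/6 mice. The 5 WT libraries came from *Otulin* fl/fl littermates without K14-Cre, and the other 10 from mice that lack OTULIN in keratinocytes through K14-Cre (OTULIN-KO), 5 labelled non-lesional and 5 labelled lesional. No agent was given. The libraries hold all cells of the skin sample, including those without K14-Cre, and the study counts the profiles of a group as separate mice. Whether a lesional and a non-lesional library came from the same mouse is not given in the sources used here. Library totals ran from 1962604 to 2567138 counts, so that 3 counts, the limit that a count of 0 allows, correspond to 1.17 to 1.53 CPM, the count scaled by library size. *Otulin* itself had 12.3 to 28.2 CPM in WT, 21.3 to 30.6 CPM in non-lesional and 18.8 to 27.2 CPM in lesional libraries, and these ranges overlapped.

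Calgranulins S100A8 and S100A9 pair to form calprotectin, which binds calcium and withholds zinc and manganese from microbes, and which also acts as a danger signal on myeloid cells. They are abundant in neutrophils, and keratinocytes make them in wounded, infected or psoriatic epidermis. Stefins are small inhibitors of cysteine cathepsins, LCN2 captures bacterial siderophores, SLPI inhibits neutrophil serine proteases, and SAA3 is a serum amyloid A made locally in inflamed tissue.

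The genes occupy 4 chromosomes of GRCm38. *S100a8* (ENSMUSG00000056054) lies on the plus strand of chromosome 3 from 90668978 to 90670035, and *S100a9* (ENSMUSG00000056071) on the minus strand from 90692632 to 90695721, with 22.6 kb between them. On chromosome 16, *Stfa1* (ENSMUSG00000071562) lies on the plus strand from 36276951 to 36285373, *Stfa2* (ENSMUSG00000022902) on the minus strand from 36403992 to 36408457 and *Stfa3* (ENSMUSG00000054905) on the minus strand from 36450537 to 36455392. *Lcn2* (ENSMUSG00000026822) and *Slpi* (ENSMUSG00000017002) lie on the minus strand of chromosome 2, from 32384633 to 32388252 and from 164354070 to 164389095. *Saa3* (ENSMUSG00000040026) lies on the minus strand of chromosome 7 from 46711998 to 46715700. No exon of the 8 genes overlapped an exon of another gene on the opposite strand, and the only overlap on the same strand was that of *Slpi* with the microRNA gene *Mir7678*.

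Because the 3 stefins moved together in these libraries, their upstream sequences were compared. The 250 bases before the RefSeq start matched in 81.0% of aligned positions between *Stfa1* and *Stfa2*, in 83.5% between *Stfa1* and *Stfa3* and in 80.4% between *Stfa2* and *Stfa3*, against 49.8% between *S100a8* and *S100a9*. The longest run that the 3 stefins share was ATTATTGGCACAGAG, which 5 of 32851 mouse promoter windows of this length held (0.0152%), those of *Stfa1*, *Stfa2*, *Stfa3*, *Cstdc5* and *Stfa2l1*. The first 50 bases of these windows, from 250 to 201 bases before the start, are printed 5′ to 3′ from RefSeq on GRCm38.p6, with the shared run in capitals.
Stfa1, chr16:36276898-36276947, plus strand: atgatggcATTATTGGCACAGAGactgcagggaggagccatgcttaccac
Stfa2, chr16:36408564-36408613, minus strand: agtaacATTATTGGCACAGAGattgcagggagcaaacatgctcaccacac
Stfa3, chr16:36455593-36455642, minus strand: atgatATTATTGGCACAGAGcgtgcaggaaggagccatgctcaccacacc
Cstdc5, chr16:36367771-36367820, minus strand: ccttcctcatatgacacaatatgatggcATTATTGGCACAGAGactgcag
Stfa2l1, chr16:36156561-36156610, plus strand: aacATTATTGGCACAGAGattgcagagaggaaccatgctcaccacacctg
The run was chosen after the sequences were compared, and nothing is known from these data of what binds it. The windows of the neighbouring genes *Csta1*, *Csta2*, *Csta3* and *Cstdc4* lack the run. In lesional replicates 2 and 11 *Csta3* had 54.4 and 95.3 CPM and *Cstdc4* 9.06 and 41.4 CPM, each with a WT median of 0. A link between the run and the levels was not tested.

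C/EBP proteins are factors known to act on calgranulin and acute phase genes. Their motif, searched as TTNNGNAA on both strands of the 250 upstream bases, matched in 7 of the 8 genes, *Stfa3* being the exception, and in 36.8% of all 32851 windows. A TATA box, searched as TATAAA on both strands, matched in 1 of the 8 genes, *S100a8*, at 30 bases before the start, and in 12.4% of all windows. AP-1 (TGANTCA, 6.75% of all windows), STAT (TTCNNNGAA, 7.02%) and NF-kB by its decamer consensus (7.25%) matched in 0 of the 8 on either strand. The *S100a8* TATA match lies where GENCODE places an exon of a longer transcript model and is not printed. C/EBP matches of *S100a8*, *S100a9* and *Saa3* are shown in capitals within 150 bases before the RefSeq start, ending where a GENCODE exon begins.
S100a8, chr3:90668921-90668977, plus strand: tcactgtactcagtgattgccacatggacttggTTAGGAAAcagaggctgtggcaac
S100a9, chr3:90695722-90695871, minus strand: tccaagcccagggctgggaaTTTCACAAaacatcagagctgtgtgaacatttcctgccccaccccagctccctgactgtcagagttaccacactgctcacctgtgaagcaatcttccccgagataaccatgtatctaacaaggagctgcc
Saa3, chr7:46715701-46715826, minus strand: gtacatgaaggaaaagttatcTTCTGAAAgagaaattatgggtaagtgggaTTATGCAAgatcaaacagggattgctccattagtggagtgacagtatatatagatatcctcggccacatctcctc
*Saa3* had 4 C/EBP matches in its 250 bases, of which 2 are shown. Such a match is a description of letters and not evidence of binding.

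Of the 8 genes, 7 were high in lesional replicates 2 and 11 and low in 12 other libraries, and the calgranulins and stefins were intermediate in non-lesional replicate 3. The exception was *Saa3*, with 2 counts in lesional replicate 2, under the limit of 3 counts, and 4 in non-lesional replicate 3. Together they took 0.390% of the counts of lesional replicate 2 (95% exact binomial interval 0.382 to 0.399) and 0.798% of those of lesional replicate 11 (0.786 to 0.810). In non-lesional replicate 3 this share was 0.0306% (0.0284 to 0.0330). In the other 12 libraries it lay between 0.000548% and 0.00276%, the highest being non-lesional replicate 15. These intervals, like all limits from counts here, cover counting error only. Lesional replicates 5, 8 and 14 carried a lesional label and shares of 0.00117%, 0.00155% and 0.00162%, within the range of the WT libraries. All 8 genes had a count in the 3 libraries with the largest shares, against 3 to 7 genes in each of the others.

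**Figure D1:**
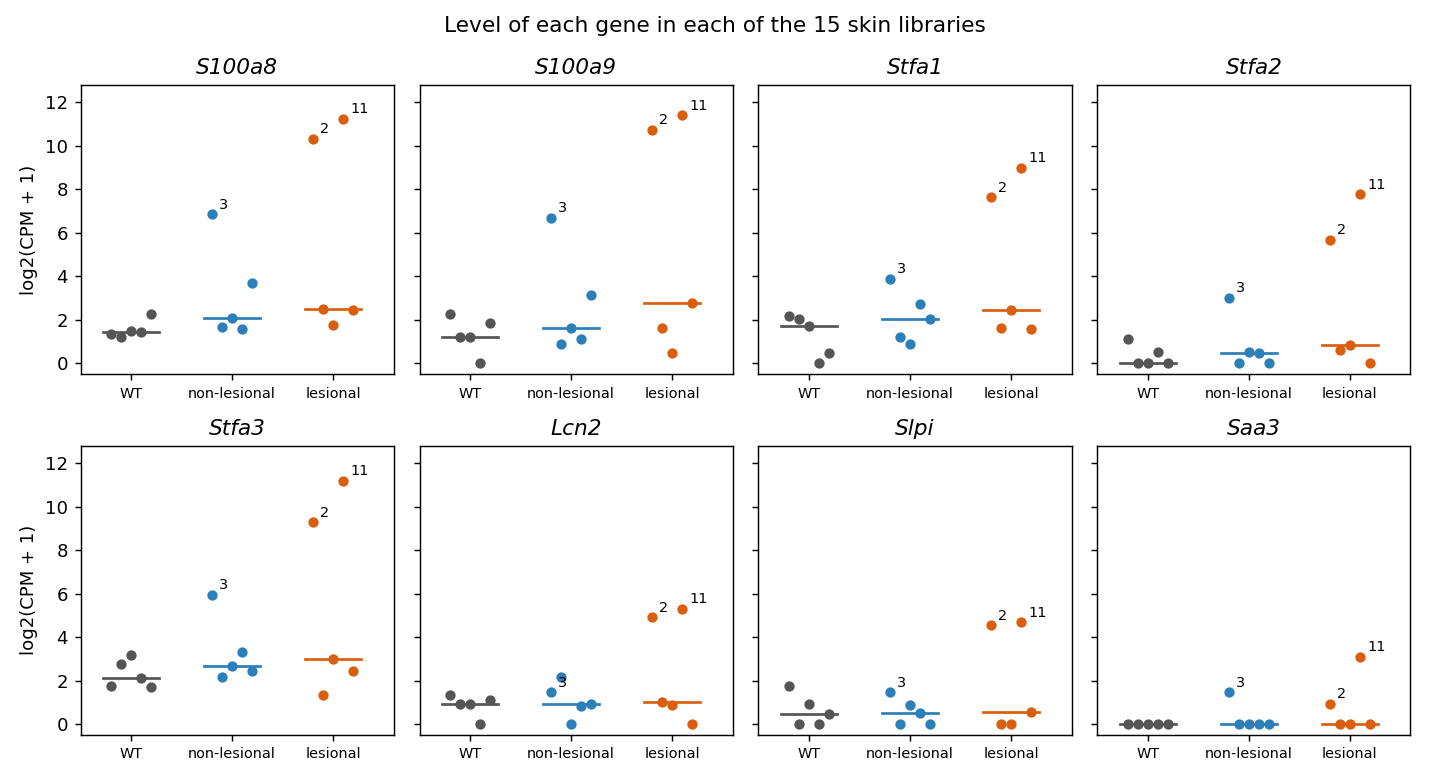
Each panel plots log2(CPM + 1) of 1 gene in the 5 WT, 5 non-lesional and 5 lesional libraries, with a line at the group median and the replicate number beside lesional replicates 2 and 11 and non-lesional replicate 3. Lesional replicates 2 and 11 lie above the 5 WT libraries in every panel, while lesional replicates 5, 8 and 14 lie among or near the WT values.

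*S100a8* had 1.55, 1.31, 1.79, 1.69 and 3.74 CPM in WT replicates 1, 4, 7, 10 and 13. In non-lesional replicates 3, 6, 9, 12 and 15 it had 115, 2.13, 3.28, 2.0 and 11.9 CPM. In lesional replicates 2, 5, 8, 11 and 14 it had 1279, 4.57, 2.41, 2421 and 4.38 CPM. It ranked 55th and 29th of all genes by CPM in lesional replicates 2 and 11, 1408th in non-lesional replicate 3, and between 9409th and 15763rd in the other 12. In 4 of 5 lesional libraries its level exceeded that of every WT library, but in 2 of these 4 by less than 1 CPM. The counts behind the low values were 3 to 10 per WT library.

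*S100a9*, whose product pairs with that of *S100a8*, had 3.88, 1.31, 1.34, 0 and 2.62 CPM in the WT libraries in the same order. It had 102, 0.853, 2.05, 1.20 and 7.92 CPM in the non-lesional libraries and 1703, 2.03, 0.402, 2722 and 5.84 CPM in the lesional libraries. The same 3 libraries stood out, and non-lesional replicate 15 was the next highest for both calgranulins. *S100a9* counts were 1.33 times those of *S100a8* in lesional replicate 2 (95% counting interval 1.27 to 1.40) and 1.12 times in lesional replicate 11 (1.08 to 1.17). In non-lesional replicate 3 the ratio was 0.885 (0.738 to 1.06), below both lesional values beyond counting error. Neither gene shared a 35-base window of its last 300 transcript bases with another gene.

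Among the stefins, *Stfa3* had the highest level. It had 2.33, 5.69, 8.05, 3.38 and 2.25 CPM in WT, 60.3, 3.41, 5.33, 8.78 and 4.40 CPM in non-lesional, and 623, 1.52, 6.83, 2321 and 4.38 CPM in lesional libraries. In lesional replicate 11 it was nearly as high as *S100a8*, whereas in lesional replicate 2 it had 623 against 1279 CPM. Levels of *Stfa3* in lesional replicates 5, 8 and 14 lay below the highest WT value.

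*Stfa1* had 3.49, 3.06, 2.24, 0 and 0.374 CPM in WT, 13.8, 1.28, 0.821, 5.59 and 3.08 CPM in non-lesional, and 199, 2.03, 4.42, 509 and 1.95 CPM in lesional libraries. *Stfa2*, the lowest stefin of the 3, had 111 and 435 counts in lesional replicates 2 and 11, 16 in non-lesional replicate 3, and 0 to 3 in each of the other libraries. Counts of these paralogs are less certain than those of *Stfa3*, since 70.7% of the 35-base windows in the last 300 bases of *Stfa1* and 40.6% of those of *Stfa2* also occur in transcripts of other genes. For *Stfa3* this share was 0%.

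*Lcn2* had 4, 2, 2, 0 and 3 counts in WT, 4, 8, 0, 2 and 2 counts in non-lesional, and 64, 2, 2, 76 and 0 counts in lesional libraries. In CPM the 2 high libraries had 29.0 and 38.3, against at most 3.41 in the other 13. Here non-lesional replicate 3 was not raised, at 1.77 CPM, and non-lesional replicate 6 was the highest of its group.

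*Slpi* had 6, 0, 2, 0 and 1 counts in WT, 4, 0, 2, 1 and 0 in non-lesional, and 49, 0, 0, 49 and 1 in lesional libraries. The 2 high libraries reached 22.2 and 24.7 CPM, and the highest of the rest, WT replicate 1, 2.33 CPM. *Saa3* was counted in 3 libraries only, with 2 and 15 counts in lesional replicates 2 and 11 and 4 counts in non-lesional replicate 3. Its 0 counts in the 5 WT libraries allow up to 0.249 CPM over the group (3 counts), so that the lesional level of 1.56 CPM, from 17 counts, was at least 6.26-fold higher. Of these 17 counts 15 came from lesional replicate 11, and the 2 that remain without it are under the limit, so that no bound is left. For the non-lesional group, whose 4 counts all came from replicate 3, the corresponding bound was 1.38-fold.

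By level, the order in lesional replicates 2 and 11 was the same, *S100a9*, *S100a8*, *Stfa3*, *Stfa1*, *Stfa2*, *Lcn2*, *Slpi* and *Saa3*, and in non-lesional replicate 3 the calgranulins changed places and the last 3 genes had 4 counts each. The calgranulins made up 76.3% of the counts of the 8 genes in lesional replicate 2, 62.2% in lesional replicate 11 and 71.5% in non-lesional replicate 3. The stefins made up 22.3%, 36.9% and 26.7%. Between groups, every neighbouring pair in this order had overlapping values, since each gene spanned from near 0 to its highest level within the lesional group.

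The difference between the 2 high lesional libraries was not the same for each gene. The CPM in lesional replicate 11 was 1.89 times that in replicate 2 for *S100a8* (95% counting interval 1.81 to 1.98) and 1.60 times for *S100a9* (1.53 to 1.67). The ratio was 2.56 for *Stfa1* (2.29 to 2.87), 3.72 for *Stfa3* (3.51 to 3.96) and 4.36 for *Stfa2* (3.53 to 5.42). *Lcn2*, with a ratio of 1.32 (0.935 to 1.87), and *Slpi*, with 1.11 (0.734 to 1.69), had intervals that include 1. The intervals of the 3 stefins lay above those of both calgranulins, which compares these libraries and not conditions. The ratio of *Saa3*, 8.35 (1.94 to 75.2), rests on 15 and 2 counts.

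**Figure D2:**
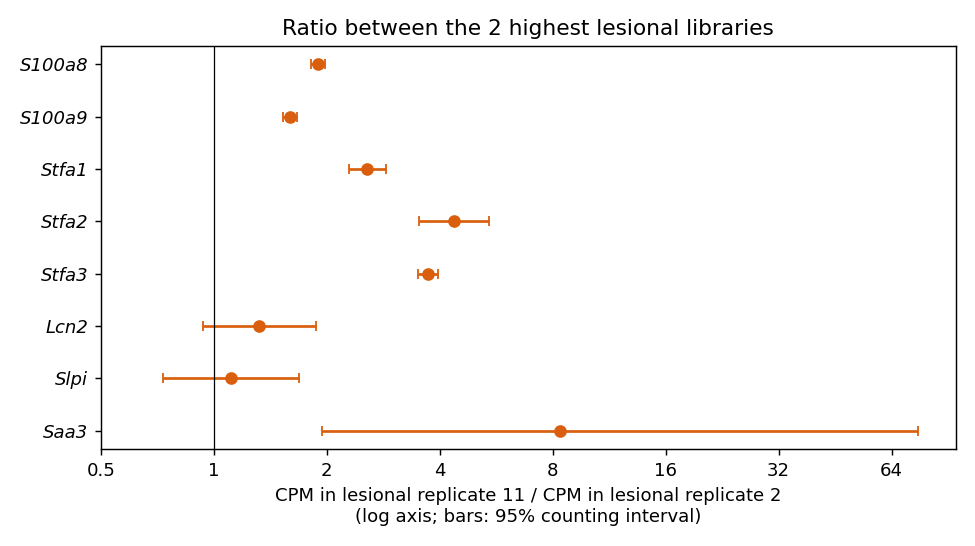
The points give, for each gene, its CPM in lesional replicate 11 divided by its CPM in lesional replicate 2 on a log axis, and the bars the 95% counting interval. The stefins lie between 2.56 and 4.36, to the right of the calgranulins at 1.60 and 1.89.

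In non-lesional replicate 3 the *S100a8* level was 11.1-fold lower than in lesional replicate 2 (counting interval 9.76 to 12.6), and *S100a9* was 16.7-fold lower (14.6 to 19.1). *Stfa3* was 10.3-fold lower (8.66 to 12.4). Even so, its 115 CPM of *S100a8* compare with at most 11.9 CPM in the 12 libraries outside these 3.

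The stefin A family forms a cluster of 10 counted genes that spans 335 kb of chromosome 16, from *Csta1* to *Stfa3*, and the 7 that are not among the 8 genes were followed beside them. *Csta1*, known from cornified keratinocytes, was expressed in every library, with a WT median of 50.8 CPM, and had 146 and 251 CPM in lesional replicates 2 and 11. *Cstdc5* had a WT median of 3.37 CPM and reached 719 and 2727 CPM, the second of which compares with 2722 CPM for *S100a9*, the highest of the 8 genes there. *Csta3* had 54.4 and 95.3 CPM, and *Cstdc4* 9.06 and 41.4 CPM. *Cstdc6* had 4.98 and 27.2 CPM, *Stfa2l1* 2.27 and 20.7 CPM, and *Csta2* 3.62 and 10.6 CPM. These last 5 genes each had at most 3 counts summed over the 12 libraries outside lesional replicates 2 and 11 and non-lesional replicate 3. In non-lesional replicate 3, *Csta3* had 5 counts and the other 4 genes 0. Of the last 300 bases of *Cstdc5*, 79.3% of windows occur in other genes, among them *Stfa1*, so that the counts of these genes are uncertain: only reads with high mapping quality were kept, and how many reads from shared windows were dropped or placed on a paralog was not tested.

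**Figure D3:**
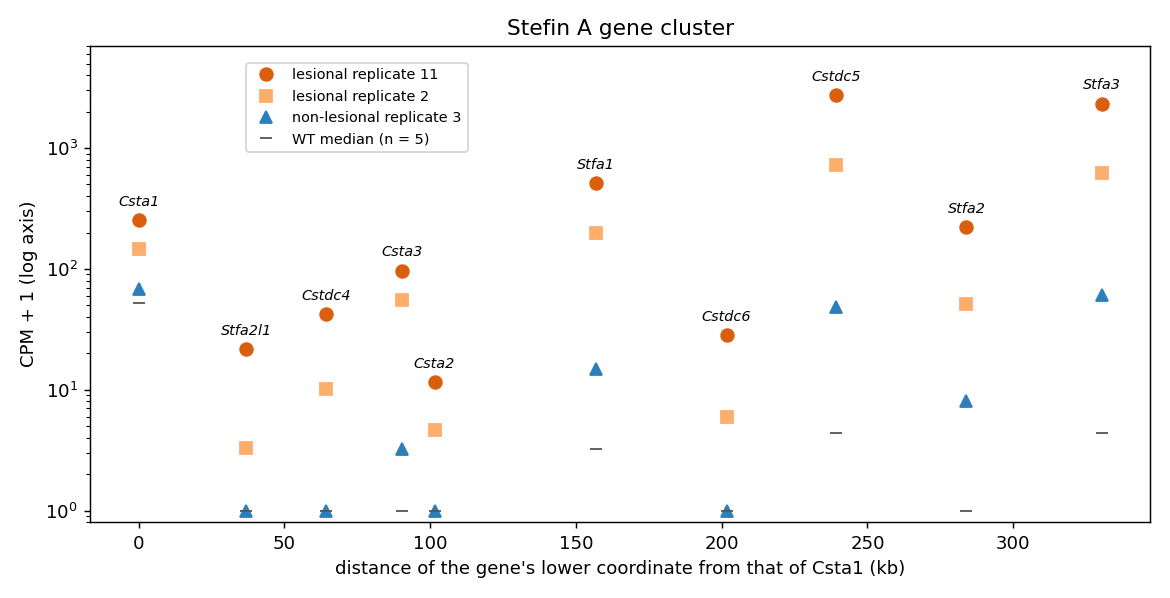
The 10 counted genes of the stefin A cluster are placed by distance in kb from *Csta1*, with CPM + 1 on a log axis in lesional replicates 11 and 2 and non-lesional replicate 3 and the WT median of 5 libraries. *Cstdc5* and *Stfa3* reach the highest levels, and each gene is higher in lesional replicate 11 than in replicate 2.

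Compared as groups, lesional with WT libraries, *S100a8* had 742 ± 1089 CPM (SD, n = 5) and 2.02 ± 0.98 CPM (SD, n = 5), which gave 8.46 as log2 fold change (standard error 2.43). With edgeR's quasi-likelihood fit of 27027 genes its adjusted p was 0.721 and its unadjusted p 0.0079. *S100a9*, at 887 ± 1263 and 1.83 ± 1.47 CPM (SD, n = 5), had a log2 fold change of 8.84 (standard error 2.63). The log2 fold changes were 6.26 (standard error 1.96) for *Stfa1*, 7.14 (2.33) for *Stfa2* and 7.10 (2.21) for *Stfa3*. Those of *Lcn2* and *Slpi* were 3.85 (1.48) and 3.58 (1.61). In every case the SD of the lesional group exceeded its mean, and each adjusted p was 0.721.

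None of the 8 genes passed the threshold of an adjusted p under 0.05 in this comparison. Neither did any gene of the table, the share called higher being 0%, with 1292 genes at an unadjusted p under 0.05 (826 higher). Of the 8 genes, 7 had an unadjusted p under 0.05, all higher in lesional libraries, and the median log2 fold change over the 8 was 6.68, against 0.0065 over all genes tested. The 8 genes, and the lists below, were chosen with earlier results of these data known. Such counts and medians, here and below, are therefore descriptions and not tests. Non-overlap between the groups occurred in 0 of the 8 genes and in 0.322% of all genes. By a two-sided exact permutation test over the libraries, *S100a8* had p = 0.0159, and the other 7 genes had p from 0.103 to 0.444, where 0.0079 is the smallest value possible and 24 such tests were made in all. DESeq2's Wald test put 4 of the 8 below that threshold: *S100a8* (6.3e-05), *S100a9* (0.0014), *Stfa3* (0.0031) and *Stfa1* (0.039). They were 4 of 14 genes called by that test, which is 0.109% of the 12855 genes with a value, and 1 of the 8, *Saa3*, had none.

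These differences rested on 2 libraries. Without lesional replicates 2 and 11 the log2 fold change of *S100a8* was 0.85 (standard error 0.60), of *S100a9* 0.51 (0.67), of *Stfa1* 0.62 (0.65) and of *Stfa3* 0.010 (0.473), and for *Lcn2* and *Slpi* it turned to -0.53 (1.10) and -1.92 (1.43). Leaving out either library alone kept the sign of the 7 differences other than that of *Saa3*, and without replicate 2 *S100a8* had 8.18 and *Stfa3* 7.08. Without replicate 11 the log2 fold change was 7.26 in place of 8.46 for *S100a8*, 7.79 in place of 8.84 for *S100a9*, 4.79 in place of 6.26 for *Stfa1*, 5.09 in place of 7.14 for *Stfa2* and 5.21 in place of 7.10 for *Stfa3*. It was 3.02 in place of 3.85 for *Lcn2* and 2.86 in place of 3.58 for *Slpi*, and *Saa3*, with 2 lesional counts left, gives no usable fold. With DESeq2, leaving out either of these libraries left *S100a8*, *S100a9*, *Stfa1* and *Stfa3* with no adjusted p, so that their calls could not be repeated. In that test the log2 fold change of *S100a8* was 8.26 (1.68) without replicate 2 and 7.34 (1.59) without replicate 11, in place of 8.54 (1.52), and that of *Stfa3* 7.10 (1.67) and 5.22 (1.47) in place of 7.11 (1.49). The low WT counts mattered too. With edgeR, leaving out WT replicate 1 gave 8.40 (3.09) in place of 7.14 for *Stfa2* and 4.68 (2.05) in place of 3.58 for *Slpi*.

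**Figure D4:**
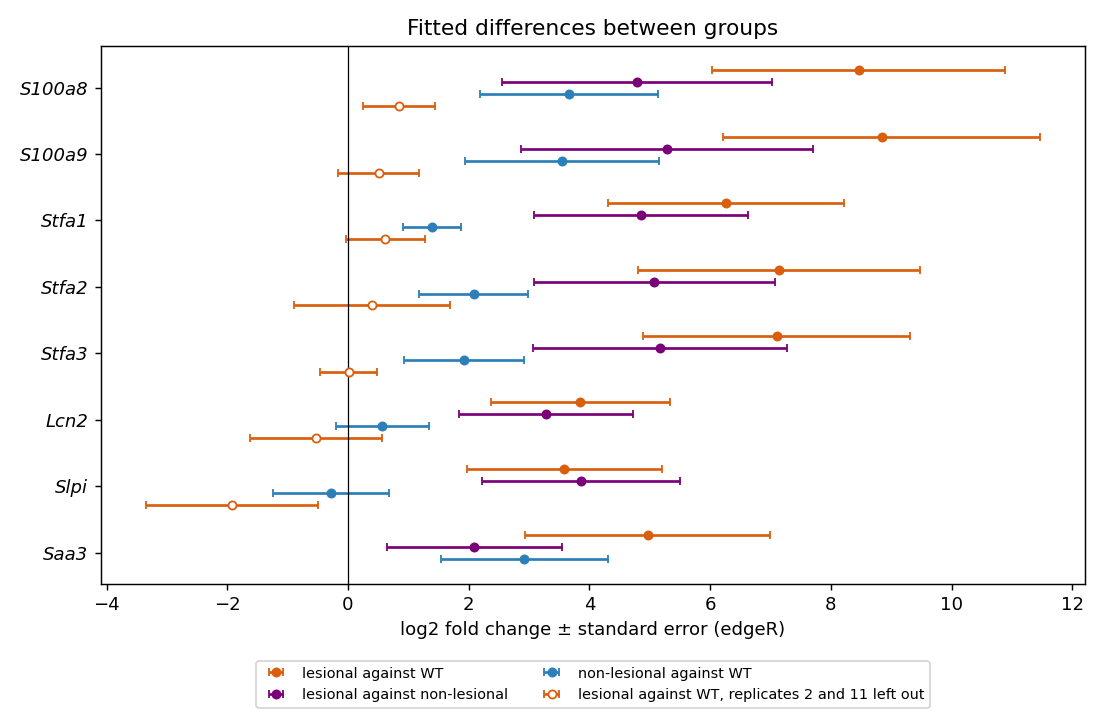
Points and bars give the log2 fold change and its standard error from edgeR for each gene in the 3 comparisons (5 libraries against 5), with open points for lesional against WT without lesional replicates 2 and 11. The filled orange points lie between 3.58 and 8.84, and the open ones within 2 of 0; for *Saa3*, at 0 counts in WT, the fitted value depends on the prior count and no open point exists.

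Between non-lesional and WT libraries the differences were smaller. *S100a8* had 26.9 ± 49.6 CPM (SD, n = 5) in non-lesional libraries and a log2 fold change of 3.67 (standard error 1.48), and *S100a9* had 22.8 ± 44.4 CPM (SD, n = 5) and 3.55 (1.61). For *Stfa3*, *Stfa2* and *Stfa1* the log2 fold changes were 1.93 (0.99), 2.08 (0.90) and 1.39 (0.48). *Lcn2*, at 0.57 (0.76), and *Slpi*, at -0.28 (0.96), did not differ beyond their errors. The adjusted p from edgeR ran from 0.747 to 0.986 over 27255 genes, so that 0 of the 8 genes were called, while 0.0477% of all genes were called higher. At an unadjusted p under 0.05 there were 4 of the 8 genes and 1235 of all genes, and DESeq2 called 1 gene of the table and none of the 8, giving *S100a8*, *S100a9* and *Stfa3* no adjusted p. Non-overlap occurred in 0 of the 8 and in 0.235% of all genes. By exact permutation tests p ran from 0.0714 to 1. The median log2 fold change over the 8 was 2.0, against 0.012 over all genes.

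Without edgeR's robust estimation, *S100a8* (adjusted p = 1.1e-05), *S100a9* (6.0e-05) and *Stfa3* (0.0085) were called, when 0.0771% of all genes were called higher in the non-lesional libraries. Without non-lesional replicate 3 the log2 fold changes of these genes in the robust fit were 1.20 (0.49), 0.65 (0.56) and 0.36 (0.40), and that of *Stfa2* was -0.54 (1.27). *Stfa1* was also highest of the non-lesional group in that library, at 13.8 CPM, against 0.821 to 5.59 CPM in the rest of the group.

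Compared directly, lesional with non-lesional libraries, the log2 fold change was 4.79 (standard error 2.24) for *S100a8* and 5.28 (2.42) for *S100a9*. It was 4.86 (1.77) for *Stfa1*, 5.08 (2.0) for *Stfa2* and 5.17 (2.1) for *Stfa3*. *Lcn2* had 3.28 (1.44), *Slpi* 3.86 (1.64) and *Saa3* 2.09 (1.45). Each adjusted p from edgeR was 0.730 over 27316 genes, the share of all genes called higher was 0%, and 1226 genes had an unadjusted p under 0.05, among them 4 of the 8, *Stfa1*, *Stfa2*, *Stfa3* and *Slpi*. DESeq2 called 0 genes. Non-overlap occurred in 0 of the 8 and in 0.238% of all genes, and the median log2 fold change was 4.82, against 0.0076 over all genes. Two-sided exact permutation tests gave p from 0.222 to 0.722. Without lesional replicates 2 and 11 and non-lesional replicate 3, the log2 fold changes of *S100a8* and *S100a9* were -0.35 (0.50) and -0.15 (0.60). Non-lesional replicate 3 alone also sets the size of these differences. It had 115 CPM of *S100a8* and 102 CPM of *S100a9*, against at most 11.9 and 7.92 CPM in the rest of its group. The comparisons with WT share the WT libraries, and those with lesional libraries share these, so the 3 comparisons are not independent of each other.

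Other genes of the same families, and of the pathway around them, were counted from the lists named in each paragraph, with calls by edgeR. Of 15 other S100 genes, 14 were tested between lesional and WT libraries, 0 were called (2 had an unadjusted p under 0.05, both lower), and their median log2 fold change was -0.045. *S100a6*, a calcium-binding protein of proliferating and stromal cells, is the highest of them, with 642 to 904 CPM in WT and 549 to 926 CPM in lesional libraries. *S100a14* had 491 and 764 CPM in lesional replicates 2 and 11 (WT range 242 to 327 CPM), and *S100a11* had 313 and 501 CPM (WT range 202 to 251.9 CPM). *S100a3*, a hair cuticle protein, was called lower between non-lesional and WT libraries (log2 fold change -2.40, standard error 0.54, adjusted p = 0.0218 from edgeR). WT replicate 1 had 17.8 CPM of *S100a3* and every other library at most 3.37 CPM. The value of *S100a3* in the fit without WT replicate 1 was not examined, so whether the call rests on that library was not tested.

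Of 11 other stefins and cystatins, 0 were called in any comparison (3 had an unadjusted p under 0.05 between lesional and WT libraries, all higher). *Cstb*, the ubiquitous cystatin B, had 352 and 587 CPM in lesional replicates 2 and 11 (WT range 53.4 to 131 CPM), whereas *Cst3*, the secreted cystatin C, had 332 and 246 CPM (WT range 321 to 408 CPM). The secreted cystatin gene *Cst6* had 200 and 140 CPM (WT range 46.8 to 149 CPM). *Cst7*, a leukocyte cystatin, had 0.906 and 0 CPM in the 2 libraries and at most 2.69 CPM in any library.

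Of 23 other antimicrobial and acute phase genes, 22 were tested between lesional and WT libraries and 0 were called (5 had an unadjusted p under 0.05, all higher), with a median log2 fold change of 0.57. *Defb6* and *Defb1*, which encode epithelial beta-defensins, had 370 and 384 CPM and 130 and 298 CPM in lesional replicates 2 and 11 (WT range 89.7 to 221 and 38.5 to 68.6 CPM). *Wfdc21*, a whey acidic protein family gene, went the other way, with 156 and 107 CPM against 201 to 469 CPM in WT. The 5 genes with an unadjusted p under 0.05 were *Chil1*, *Defb3*, *Defb14*, *Pglyrp3* and *Wfdc5*, and *Chil1*, a chitinase-like gene, had 133 and 213 CPM in these lesional libraries (WT range 0.438 to 4.49 CPM). Of genes whose products neutrophil granules hold, *Camp* had 0.504 CPM in lesional replicate 11 and 0 elsewhere, and *Ltf* 0.402 CPM in lesional replicate 8 and 0 elsewhere. *Pglyrp1* was counted in all 15 libraries, with 0.906 and 4.54 CPM in lesional replicates 2 and 11 (WT range 0.448 to 2.25 CPM), and *Lyz2*, also a macrophage gene, had 58.0 and 55.5 CPM (WT range 42.3 to 131 CPM). The related serum amyloid genes *Saa1* and *Saa2* had at most 0.799 CPM in any library, and *Saa4* had 0 counts in all 15.

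Among 14 receptors of these proteins and proteases that they inhibit, 14 were tested and 0 called between lesional and WT libraries, 0 having an unadjusted p under 0.05, with a median log2 fold change of 0.024. The cysteine cathepsins, targets of the stefins, were the highest: *Ctsl* had 499 and 686 CPM in lesional replicates 2 and 11 (WT range 182 to 251 CPM). *Ctsb* had 404 and 439 CPM (WT range 215 to 381 CPM), and *Ctsh* 166 and 248 CPM, within or near the WT range of 126 to 262 CPM. The neutrophil elastase gene *Elane*, a target of SLPI, had at most 0.803 CPM. *Tlr4*, a receptor of calprotectin, had 5.44 and 5.04 CPM (WT range 1.27 to 7.48 CPM).

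Of 17 cytokines and factors known to induce these genes, 14 were tested and 0 called (6 had an unadjusted p under 0.05, all higher), all 14 with a fitted increase between lesional and WT libraries and a median log2 fold change of 1.02. The 6 were *Il1b*, *Il6*, *Osm*, *Tnf* and the interleukin 36 genes *Il1f6* and *Il1f8*. *Il1b* had 24.5 and 198 CPM in lesional replicates 2 and 11 (WT range 0.374 to 3.10 CPM), *Il1f6* 16.8 and 26.2 CPM (WT range 0.448 to 2.25 CPM) and *Il1f8* 14.04 and 16.6 CPM (WT range 0.448 to 5.08 CPM). *Osm* had 4.08 and 14.6 CPM, *Tnf* 3.17 and 11.6 CPM and *Il6* 0.453 and 3.03 CPM, where no WT library had over 0.776, 1.69 and 0 CPM. *Il17a*, *Il17f* and *Il22* had 0 counts in all 15 libraries, so that at this depth they were not detectable. *Stat3* had 311 and 533 CPM in lesional replicates 2 and 11 (WT range 200 to 233 CPM). *Nfkb1* had 81.5 and 123 CPM (WT range 43.4 to 57.8 CPM), and *Cebpd* had 81.1 and 95.3 CPM, within the WT range of 60.2 to 96.7 CPM. *Cebpb*, the other C/EBP gene of the list, had 80.2 and 123 CPM (WT range 30.03 to 50.6 CPM), with a log2 fold change of 0.68 (0.44) that was not called.

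Markers of the cells that could carry these transcripts were set beside them. Of 14 neutrophil markers, *Ly6g*, *Csf3r*, *Mpo* and *Cd177* were at 0 in all 15 libraries, and 10 were tested, with 0 called (2 had an unadjusted p under 0.05 between lesional and WT libraries, both higher, *Cxcr2* and *Trem1*). The summed level of the list was 39.0 to 82.3 CPM in WT, 36.4 to 61.6 CPM in non-lesional and 38.5 to 148 CPM in lesional libraries. Lesional replicate 11 had 148 CPM, of which *Mmp9*, made also by keratinocytes and macrophages, gave 92.3 CPM, whereas lesional replicate 2 had 54.8 and non-lesional replicate 3 had 36.4 CPM. *Il1r2*, the highest of the list by its mean, and *Padi4* had 19.0 and 9.51 CPM in lesional replicate 2 and 19.2 and 8.57 CPM in lesional replicate 11, against WT ranges of 32.6 to 70.0 and 0 to 8.14 CPM. The receptor gene *Cxcr2* had 4.98 and 5.55 CPM in lesional replicates 2 and 11 and 0 in the 5 WT libraries. *Trem1* had 0.453 and 7.06 CPM there and 0 in WT, and *Retnlg* 0.453 and 11.6 CPM (WT range 0 to 1.31 CPM). Without *Il1r2* the other 13 markers summed to 35.8 and 129 CPM in lesional replicates 2 and 11, above the 6.13 to 20.2 CPM of WT, and to 10.7 CPM in non-lesional replicate 3, within it. Of these sums *Mmp9* gave 19.9 CPM in lesional replicate 2 and 92.3 CPM in lesional replicate 11. The sum without *Il1r2* was formed after the values were seen. Macrophage markers summed to 272 to 570 CPM in WT and 328 to 604 CPM in lesional libraries, with 509 and 604 CPM in lesional replicates 2 and 11, and 10 were tested with 0 called (3 had an unadjusted p under 0.05, all higher, *C1qa*, *Fcgr1* and *Ly6c2*). The leading gene *Csf1r* had 87.4 and 89.8 CPM in these libraries (WT range 85.9 to 148 CPM), *C1qb* 92.0 and 121 CPM (WT range 37.2 to 113 CPM) and *C1qa* 120 and 143 CPM (WT range 44.0 to 102 CPM).

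Keratinocyte genes of wounded or hyperplastic epidermis were, as a sum, high in lesional replicates 2 and 11, as the 8 genes were. Their summed level was 389 to 1414 CPM in WT, 416 to 1178 CPM in non-lesional and 347 to 30180 CPM in lesional libraries, with 10880 and 30180 CPM in lesional replicates 2 and 11 and 1178 CPM in non-lesional replicate 3. *Krt6a* had 4964 and 15500 CPM in these lesional libraries, *Krt6b* 3525 and 8782 CPM, and *Krt16* 899 and 2888 CPM. In non-lesional replicate 3, *Krt6b* had 220 CPM (WT range 1.27 to 17.1 CPM). There *Krt6a*, at 637 CPM, lay within the WT range of 261 to 1189 CPM, and *Krt16* had 97.6 CPM (WT range 8.32 to 91.1 CPM). The sum of the list in that library also lay within the WT range. Of the 11 genes, 10 were tested and 0 called between lesional and WT libraries (7 had an unadjusted p under 0.05, all higher), with a median log2 fold change of 7.10. General keratinocyte markers, led by *Krt10*, *Krt15* and *Krt5*, summed to 8124 to 11340 CPM in WT and 7536 to 13370 CPM in lesional libraries, so that epidermal genes were counted in every library. This sum holds genes that went opposite ways in lesional replicates 2 and 11. *Krt14* had 3129 and 5966 CPM there (WT range 648 to 1454 CPM), and *Krt5* 2704 and 4349 CPM (WT range 1734 to 2395 CPM). *Krt15* had 1165 and 641 CPM (WT range 2467 to 3421 CPM), and *Krt10* 2953 and 1377 CPM (WT range 2150 to 4997 CPM). Fibroblast markers (*Col1a1*, *Col1a2*, *Col3a1* and others) summed to 26690 to 67420 CPM in WT and to 26980 and 16490 CPM in lesional replicates 2 and 11, the latter the lowest of all 15. Muscle markers (*Acta1*, *Myh4*, *Tnnt3* and others) summed to 12010 to 22960 CPM in WT, and to 10360 and 2547 CPM in lesional replicates 2 and 11. Adipocyte markers, led by *Fabp4*, *Cfd* and *Lpl*, summed to 1401 to 3567 CPM in WT and to 1589 and 1303 CPM in lesional replicates 2 and 11, and hair shaft keratins, led by *Krt25*, *Krt71* and *Krt27*, to 0.448 to 328 CPM in WT and 11.8 and 1.51 CPM in these libraries. Lesional replicate 2 was thus within the WT range for fibroblast, adipocyte and hair markers, and lesional replicate 11 below it for fibroblast and adipocyte markers, while both were below it for muscle markers. In bulk skin, more cells of a type and more RNA per cell cannot be told apart. The part of cell content in the levels of the 8 genes was not tested.

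**Figure D5:**
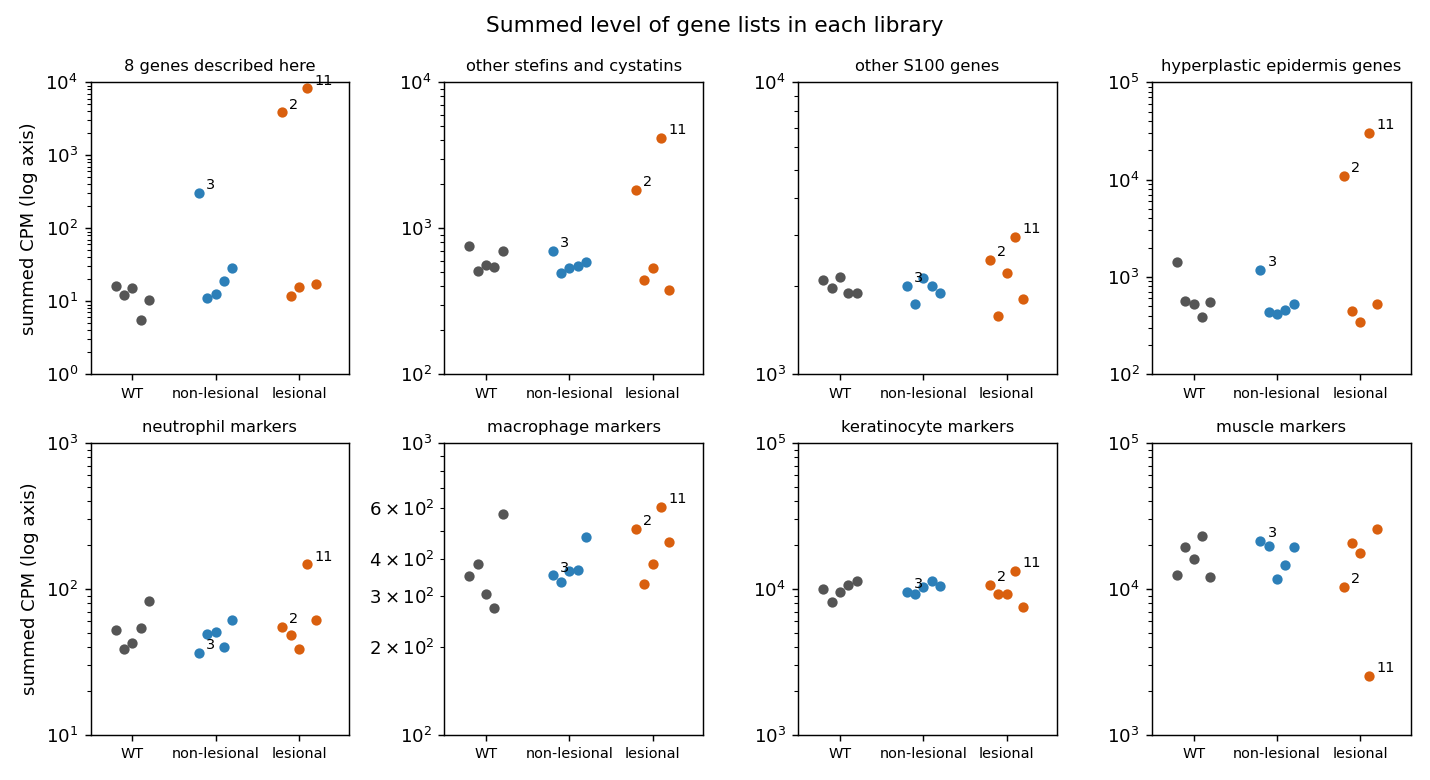
Each panel plots the summed CPM of a gene list on a log axis in the 15 libraries, with the replicate number beside lesional replicates 2 and 11 and non-lesional replicate 3. Hyperplastic epidermis genes reach 10880 and 30180 CPM in lesional replicates 2 and 11, as the 8 genes do at 3906 and 8264 CPM, and neutrophil markers have 54.8 and 148 CPM there, of which the 13 other than *Il1r2* give 35.8 and 129 CPM. Of these, *Mmp9* gives 19.9 and 92.3 CPM.

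The genes most like the mean log2(CPM + 1) of the 8 over the 15 libraries, among 12539 others with a mean of at least 5 CPM, were *Lce3e* (Pearson r = 0.995), *Uox* (0.992), *Sprr2g* (0.990), *Sprr2i* (0.990), *Lce3a* (0.989), *Csta3* (0.984), *Sprr2e* (0.983), *Serpinb3a* (0.983), *Krt6b* (0.983) and *Teddm3* (0.981). The *Lce3* and *Sprr2* genes encode cornified envelope proteins. *Lce3e* had 66.1 and 103 CPM in lesional replicates 2 and 11, 7.10 CPM in non-lesional replicate 3, and at most 0.440 CPM in the other 12 libraries. Most like *S100a8* alone were *Sprr2i* (0.986), *S100a9* (0.986), *Lce3e* (0.984), *Uox* (0.978) and *Sprr2d* (0.978). Of the other members, *Stfa2* was 16th, *Stfa3* 18th, *Stfa1* 34th and *Lcn2* 120th of 12544 genes, and *Slpi* and *Saa3* fell under the 5 CPM limit. These coefficients describe 15 libraries in which 3 high libraries set most of the spread, and carry no test.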

How the data were processed

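Skin RNA of 15 libraries, 5 per group, was sequenced as QuantSeq 3′ libraries. The authors clipped adaptors with cutadapt, mapped reads to GRCm38 and spike-in sequences with subread-align, kept primary matches of high mapping quality, described as uniquely mapping, with samtools, and deposited featureCounts counts per gene, which they tested with DESeq2. The strand setting and annotation release are not given in the sources used here. The deposited CPM equal each count over its library total and were not used in tests. The 92 spike-in rows held 0 counts and were left out.

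CPM given here used TMM factors over 15 libraries. The 2 groups of each comparison were fitted with edgeR 4.0.16 in R 4.3.3 (TMM, robust quasi-likelihood F-test, genes with at least 1 count, Benjamini-Hochberg adjustment over all genes). Standard errors were taken as the size of the log2 fold change divided by the root of F. Exact permutation tests used log2 CPM with a prior count of 2 and 252 regroupings. Alternatives were other filters, DESeq2's size factors or library totals, DESeq2 1.42.0, limma 3.58.1 (voomWithQualityWeights), 1 fit of all libraries, estimation without robustness, an adjusted p under 0.1 and leaving out libraries.

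Named were the 8 genes, the 3 genes with the highest mean CPM of each list, every stefin or cystatin with a count, and the 10 and 5 genes most alike in pattern. Other named genes (*S100a3*, *Tlr4*, *Elane*, *Camp*, *Ltf*, *Saa1*, *Saa2*, *Saa4*, *Il17a*, *Il17f*, *Il22*, *Ly6g*, *Csf3r*, *Mpo*, *Cd177*, *Cxcr2*, *Trem1*, *Retnlg*, *Chil1*, *Defb3*, *Defb14*, *Pglyrp1*, *Pglyrp3*, *Wfdc5*, *Lyz2*, *Fcgr1*, *Ly6c2*, *Krt14*, *Cebpb*, *Il1b*, *Il6*, *Osm*, *Tnf*, *Il1f6* and *Il1f8*) and the neutrophil sum without *Il1r2* were chosen after their values were seen. The 8 genes and the lists were chosen with earlier results of these data known. Of the symbols listed for other stefins and cystatins, *Cstdc3* had no row. Promoter windows came from RefSeq and matched all 8 genes.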

Additional observations from a re-analysis of the deposited data

Results flagged for a closer look

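In 23 groups of 5 values, those of the 8 genes in each group as log2(CPM + 1), Dixon's ratio of the gap to the range was compared with its 95% critical value of 0.71, which chance exceeds in about 1 of 20 groups. Non-lesional replicate 3 stood apart for *Stfa2* (7.10 CPM, ratio 0.836) and for *Saa3* (1.77 CPM, ratio 1, the other 4 libraries being at 0). WT replicate 13 stood apart for *S100a8* (3.74 CPM, ratio 0.739), on 10 counts against 3 or 4 in the other WT libraries.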

How the results depend on the processing

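The count of the 8 genes called, 0 by edgeR in each comparison, was above 0 under 2 alternatives: DESeq2's Wald test called 4 of the 8 genes between lesional and WT libraries, and edgeR without robust estimation called 3 between non-lesional and WT libraries. The cause was not tested. Between lesional and WT libraries, edgeR without robust estimation called 0. There *S100a8*, *S100a9*, *Stfa1*, *Stfa2* and *Stfa3* each had an adjusted p of 0.066, in place of 0.721 with it. The filters left part of the 8 untested: edgeR's filterByExpr kept 1, 1 and 3 genes in lesional against WT, non-lesional against WT and lesional against non-lesional libraries, and a minimum of 10 counts in 2 libraries kept 7, 4 and 7, with 0 called among those kept. Directions turned only where libraries were left out. Without lesional replicates 2 and 11, an alternative chosen after seeing the data, the log2 fold change against WT was -0.53 for *Lcn2* and -1.92 for *Slpi*. Without these and non-lesional replicate 3, also chosen after seeing the data, that between lesional and non-lesional libraries was -0.35 for *S100a8*, -0.15 for *S100a9*, -0.34 for *Stfa3*, -0.99 for *Lcn2* and -0.81 for *Slpi*; *Saa3* could not be fitted in either. With 1 library left out, the log2 fold change between non-lesional and WT libraries ran from -0.54 (without non-lesional replicate 3) to 3.35 (without WT replicate 1) for *Stfa2*, from -0.070 (without non-lesional replicate 6) to 0.89 (without non-lesional replicate 9) for *Lcn2* and from -1.11 (without non-lesional replicate 3) to 0.82 (without WT replicate 1) for *Slpi*. For *Saa3* between lesional and non-lesional libraries it ran from -0.49 (without lesional replicate 11) to 4.95 (without non-lesional replicate 3, where the non-lesional group is at 0 and the value depends on the prior count). With limma's voomWithQualityWeights, which averages on the log scale and weights libraries, the log2 fold changes between lesional and WT libraries were smaller for each of the 8 genes, from 1.14 for *Slpi* to 3.65 for *S100a8* and *S100a9*, with *Stfa3* at 2.39; which of these changes lowered them was not tested. Depth limits *Slpi*, *Lcn2* and *Saa3*, whose values outside the high libraries are 0 to 8 counts. It also limits *Stfa2*, with 0 to 3 counts in each library other than lesional replicates 2 and 11 and non-lesional replicate 3. Over the WT group *Stfa2* had 4 counts. No paired analysis was possible because the groups share no replicate numbers and the sources used here tie no libraries to the same mouse.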
